A study of Mus musculus with 4 samples.

Results

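The mRNA of 7 chemokine receptors, Ccr1, Ccr2, Ccr3, Ccr7, Ccrl2, Cx3cr1 and Cxcr4, was followed in RAW264.7 cells cocultured with CT26 cells and in RAW264.7 cells kept alone as mock. The receptors were chosen by gene symbol, and all 7 were found among the 22554 names that occur once in each of the deposited tables. RAW264.7 is a mouse macrophage line and CT26 a mouse colon carcinoma line, both grown by themselves before the coculture, RAW264.7 in DMEM and CT26 in RPMI1640. There were 2 coculture and 2 mock libraries, and replicate 1 of each group shared a table (pair 1), as did replicate 2 (pair 2). The sources used here state neither how long the coculture lasted, nor whether the cells touched, nor how the macrophages were taken out of it. Both groups come from a cell line, so no population of blood monocytes or tissue macrophages stands behind them, and no label says that the replicates were cultured separately.

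Chemokine receptors are G protein-coupled receptors that steer leukocytes along gradients of secreted chemokines. In the macrophage lineage, CCR2 brings monocytes out of the marrow towards CCL2, CX3CR1 binds the membrane-tethered chemokine fractalkine and marks patrolling monocytes and many resident macrophages, and CXCR4 holds cells near sources of CXCL12. CCR1 reads inflammatory CC chemokines, CCR7 leads mature dendritic cells to lymph nodes, and CCRL2 is an atypical receptor that binds chemerin without the usual G protein signalling.

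The libraries held an estimated 12.2 to 16.2 mega-reads. FPKM, a level per length of transcript and per library total, reached 1 for 9927 to 10084 genes. Macrophage markers summed to 10342 and 13299 FPKM in coculture and to 9850 and 6165 FPKM in mock, led by the lysozyme gene Lyz2, and 11 of the 12 passed the filter described below, Mertk being the exception. The 16 tumour cell markers summed to 2.01 and 1.41 FPKM in coculture and to 2.70 and 1.71 FPKM in mock. Epcam, Krt18, Krt20, Cldn4, Col3a1 and Dcn were listed at 0 in every library. The 7 lymphocyte markers measured summed to at most 0.269 FPKM in any library. The 8 granulocyte markers summed to 2.25 and 2.59 FPKM in coculture and to 1.33 and 0.187 FPKM in mock, nearly all of it S100a8.

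The largest receptor signal came from Cx3cr1, and it was lower in coculture in both pairs. Ccrl2 and Ccr1 were low in mock and higher in coculture in both pairs, Cxcr4 was lower in coculture in both pairs, and Ccr2, Ccr7 and Ccr3 gave no common pattern or hardly any reads. None of these differences passed the test across all genes. A difference below is that of log2(FPKM + 1), mock subtracted from coculture, a scale that understates the change of low genes. Each was fitted in limma with the pair as a block, and a Benjamini-Hochberg adjusted p below 0.05 counted as a call. The 10202 tested genes are those that reached 1 FPKM in 2 or more libraries.

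Of the 7 receptors, 3 passed this filter (Ccr1, Ccrl2 and Cx3cr1), and limma called 0 higher and 0 lower in coculture. Over all tested genes it called 0.127% higher and 0.0% lower. Without adjustment, at p below 0.05, Ccr1 and Ccrl2 were higher and Cx3cr1 was lower, against 5.26% higher and 9.45% lower of all tested genes. Ccr1 and Ccrl2 reached 1 FPKM only in the coculture libraries, so they entered the test through the group in which they were high, and their count carries no weight of its own. Across all 7, the coculture libraries lay above both mock libraries for 2 receptors and below both for 2, while 3 overlapped or tied. Without overlap, 6.79% of all 22554 names lay above and 12.2% below, and of the tested genes 10.3% lay above and 21.5% below. Overlap, here and below, also sets a library against those of the other table, which may differ in normalization.

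**Figure D1:**
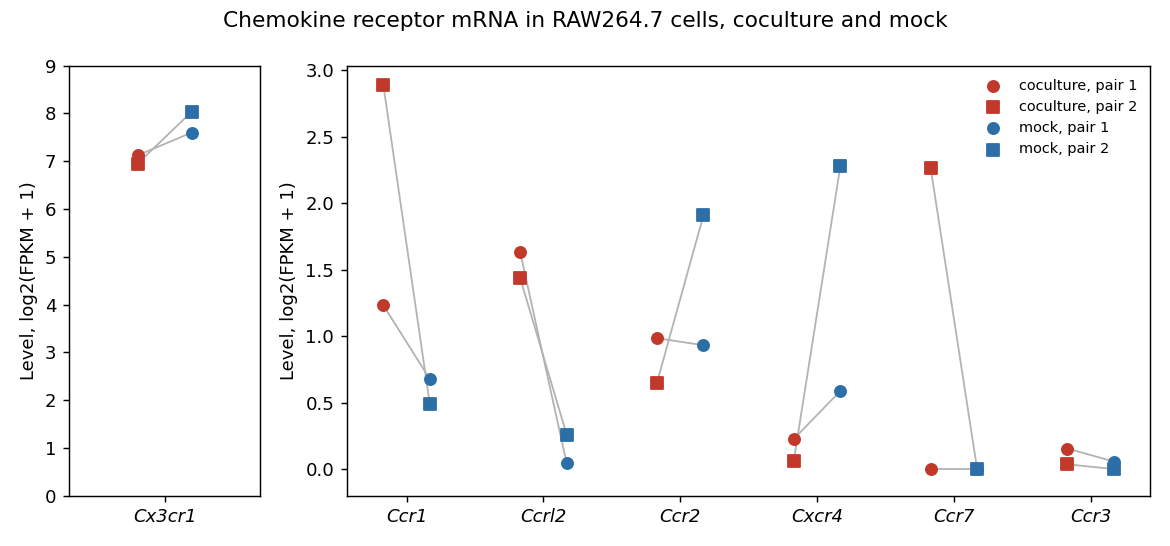
Level of each receptor in the 4 libraries as log2(FPKM + 1), coculture (red) left of mock (blue), circles for pair 1 and squares for pair 2, with a line joining the libraries of a pair. Cx3cr1 has an axis of its own and stands far above the other receptors; Ccr1 and Ccrl2 are higher in coculture in both pairs, and Ccr7 is above 0 only in coculture 2.

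Cx3cr1, the fractalkine receptor gene, stood at 138 FPKM in coculture 1 and 123 in coculture 2, against 193 in mock 1 and 262 FPKM in mock 2. Both coculture libraries lay below both mock libraries. The difference was -0.78 ± 0.18 (limma's moderated SE over 2 pairs), or -0.48 in pair 1 and -1.09 in pair 2, and did not pass (limma adjusted p = 0.222). Within the pairs the level in coculture was 0.717 times that in mock in pair 1 (95% counting interval 0.698 to 0.736) and 0.468 times in pair 2 (0.455 to 0.482). These intervals come from exact binomial limits on the estimated reads and cover counting error only. With at least 6763 estimated reads behind every value, the pairs differ from each other by far more than counting error. In its library, Cx3cr1 ranked 478 and 506 among all names in coculture, and 269 and 158 in mock. The gene Gm33858 overlaps exons of Cx3cr1 on the opposite strand in GENCODE M21, and since the strand setting of the counting is not given, reads of both cannot be told apart. In such bulk libraries, fewer cells with a transcript and less transcript per cell cannot be told apart either.

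Cx3cr1 made up most of the chemokine receptor mRNA per unit length. It held 91.6% and 82.0% of the summed FPKM of 23 chemokine receptor genes in coculture, and 94.9% and 93.6% in mock. The summed FPKM of all 23 was 151 and 149.5 in coculture and 203 and 279.8 in mock. The other 6 receptors described here summed to 4.71 and 12.6 FPKM in coculture and to 2.08 and 7.20 FPKM in mock. Macrophage identity genes gave a mixed picture beside it. Of the 11 macrophage markers tested, 3 were higher and 4 lower in both pairs, and 4 had opposite signs. Of all tested genes, 21.5% were higher and 42.2% lower in both pairs. Csf1r, the receptor that macrophages need for survival, stood at 472 and 397 FPKM in coculture and 637 and 535 FPKM in mock. Adgre1, which encodes F4/80, stood at 19.7 and 32.7 FPKM in coculture and 18.3 and 32.1 FPKM in mock. Cd14 went the other way from Csf1r, with 1732 and 1149 FPKM in coculture and 607 and 354 FPKM in mock. Their part in the Cx3cr1 result was not tested.

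Ccrl2, the atypical chemerin-binding receptor gene, stood at 2.10 FPKM in coculture 1 and 1.71 in coculture 2, against 0.0309 in mock 1 and 0.197 FPKM in mock 2. The groups did not overlap, and the mock values rest on an estimated 1 and 8 reads against 72 and 54 in coculture. The ratio of coculture to mock was 68.1 in pair 1 (95% counting interval 11.8 to 2728) and 8.68 in pair 2 (4.11 to 21.2). On the log2(FPKM + 1) scale the difference was 1.38 ± 0.23, or 1.59 in pair 1 and 1.18 in pair 2, and did not pass (limma adjusted p = 0.150). Ccrl2 was the 1 receptor with at least a 2-fold difference on this scale in the same direction in both pairs. Of all tested genes, 1.02% had such a difference on the higher side and 0.353% on the lower side. Since Ccrl2 entered the test through its coculture values, this count carries no weight of its own. By the ratio of FPKM, Ccr1 (2.26 and 15.9) and Cxcr4 (0.338 and 0.0117) also differed by more than 2-fold in both pairs. Its known ligand, the chemerin gene Rarres2, was listed at 0 in both coculture libraries and in mock 2 and at 0.0920 FPKM in mock 1. The signalling chemerin receptor gene Cmklr1 did not exceed 0.104 FPKM, and the other chemerin receptor gene, Gpr1, was listed at 0 throughout.

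Ccr1, a receptor for inflammatory chemokines such as CCL3, stood at 1.35 FPKM in coculture 1 and 6.41 in coculture 2, against 0.598 in mock 1 and 0.403 FPKM in mock 2. Both coculture libraries lay above both mock libraries, but they differed widely from each other. The estimated reads were 62 and 222 in coculture and 26 and 18 in mock. The ratio of coculture to mock was 2.26 in pair 1 (95% counting interval 1.41 to 3.72) and 15.9 in pair 2 (9.83 to 27.3). These intervals do not overlap, so the size of the difference varied between the pairs by more than counting error. The fitted difference was 1.48 ± 0.48, or 0.56 in pair 1 and 2.40 in pair 2, with a limma adjusted p of 0.300. Ccr1l1, a close copy that lies next to Ccr1, held an estimated 1 read in coculture 1 and 0 in the other libraries. How the counting treated reads that match both genes is not known here, and its part in the Ccr1 values was not tested.

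The promoters of Ccrl2 and Ccr1, which were higher in coculture in both pairs, are set beside those of Cx3cr1 and Cxcr4, which were lower in both. Each sequence gives the 250 bases before the transcription start in RefSeq on GRCm38.p6, 5′ to 3′ on the strand of the gene, which is the minus strand for all of them. The windows are chr9:111057519-111057768 for Ccrl2 (the first of 3 listed starts), chr9:123968693-123968942 for Ccr1, chr9:120068297-120068546 for Cx3cr1 and chr1:128592300-128592549 for Cxcr4. Capitals mark matches, on either strand, to the letters of 5 motifs: the kappaB motif of NF-kappaB (GGGA, any 4 bases, CC), AP-1 (TGANTCA), the interferon response motif (GAAA, any 2 bases, GAAA), the hypoxia response motif (ACGTG) and PU.1 (GAGGAAGT).
Ccrl2: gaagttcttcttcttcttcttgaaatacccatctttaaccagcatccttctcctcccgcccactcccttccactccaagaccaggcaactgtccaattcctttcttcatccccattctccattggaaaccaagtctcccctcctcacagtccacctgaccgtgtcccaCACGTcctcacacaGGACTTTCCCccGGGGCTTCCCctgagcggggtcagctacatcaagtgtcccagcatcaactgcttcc
Ccr1: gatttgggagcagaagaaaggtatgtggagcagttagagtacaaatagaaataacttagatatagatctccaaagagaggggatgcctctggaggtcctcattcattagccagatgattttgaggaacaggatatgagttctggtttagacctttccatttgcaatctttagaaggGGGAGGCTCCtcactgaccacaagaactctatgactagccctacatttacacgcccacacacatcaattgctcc
Cx3cr1: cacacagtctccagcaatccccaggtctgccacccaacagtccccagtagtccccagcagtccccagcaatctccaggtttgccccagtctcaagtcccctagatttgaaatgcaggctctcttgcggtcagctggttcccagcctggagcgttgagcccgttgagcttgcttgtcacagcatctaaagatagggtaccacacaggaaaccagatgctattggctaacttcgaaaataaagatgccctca
Cxcr4: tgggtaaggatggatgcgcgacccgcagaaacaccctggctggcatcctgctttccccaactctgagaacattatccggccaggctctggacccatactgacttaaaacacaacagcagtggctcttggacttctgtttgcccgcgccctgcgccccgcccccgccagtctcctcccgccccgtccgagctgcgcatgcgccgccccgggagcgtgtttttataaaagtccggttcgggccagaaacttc

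The Ccrl2 window held 2 matches to the kappaB letters, GGACTTTCCC from 68 to 59 bases and GGGGCTTCCC from 56 to 47 bases before the start, both read on the opposite strand. It also held a match to the hypoxia response letters from 82 to 78 bases before the start. The windows of the other two listed Ccrl2 starts held no kappaB match, only the hypoxia response letters. The Ccr1 window held 1 match to the kappaB letters, GGGAGGCTCC, from 74 to 65 bases before the start. No capital appears in the Cx3cr1 and Cxcr4 windows, which says only that these letters are not in them. Among all 32851 windows of the same length, 17.6% held the kappaB letters, 16.6% the hypoxia response letters, 6.75% the AP-1 letters, 2.98% the interferon response letters and 2.44% the PU.1 letters. Windows were found for 6 of the 7 receptors by symbol. The Ccr3 window held a kappaB match and an AP-1 match, and that of Ccr2 held none. A match is a run of letters, not a measured binding site.

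Cxcr4, the CXCL12 receptor gene, stood at 0.170 FPKM in coculture 1 and 0.045 in coculture 2, against 0.503 in mock 1 and 3.85 FPKM in mock 2. The coculture libraries lay below both mock libraries, and the mock libraries differed widely from each other. The estimated reads were 5 and 1 in coculture and 14 and 110 in mock. The ratio of coculture to mock was 0.338 in pair 1 (95% counting interval 0.0953 to 0.993) and 0.0117 in pair 2 (0.000294 to 0.0666). Cxcr4 reached 1 FPKM in mock 2 alone, so it was not among the tested genes. In the fit with no filter on low values, which called 0 of 22554 names, its difference was -1.29 ± 0.73 (limma adjusted p = 0.876), or -0.36 in pair 1 and -2.21 in pair 2. The 7 dendritic cell markers summed to 1.25 and 0.929 FPKM in coculture and to 0.731 and 2.28 FPKM in mock, but they did not move together. Siglech stood at 0.154 FPKM in coculture 1, 0 in coculture 2, 0.0815 in mock 1 and 1.35 FPKM in mock 2, and Zbtb46 at 0.277 and 0.245 FPKM in coculture and 0.176 and 0.609 FPKM in mock. Fscn1 ran the other way in pair 2, with 0.624 and 0.552 FPKM in coculture and 0.415 and 0.048 FPKM in mock. Xcr1 stood at 0.194 and 0.110 FPKM in coculture and 0.0585 and 0.157 FPKM in mock. Clec9a was found in mock 2 alone (0.115 FPKM), Flt3 in coculture 2 alone (0.022 FPKM), and Cd209a was listed at 0 in every library. The part of such cells in the Cxcr4 result was not tested.

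Ccr2, the CCL2 receptor gene of inflammatory monocytes, stood at 0.979 FPKM in coculture 1 and 0.569 in coculture 2, against 0.907 in mock 1 and 2.76 FPKM in mock 2. The groups overlapped, with coculture 1 and mock 1 close together and mock 2 above both. The ratio of coculture to mock was 1.08 in pair 1 (95% counting interval 0.817 to 1.43) and 0.206 in pair 2 (0.148 to 0.281). No difference was detectable in pair 1 at this depth, while in pair 2 the estimated reads were 47 in coculture and 294 in mock. Over both pairs the unfiltered difference was -0.60 ± 0.52 (limma adjusted p = 0.904). Mock 2 was thus the library with the highest level of both Cxcr4 and Ccr2, although levels set across the 2 tables may differ in normalization.

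Ccr7, the lymph node homing receptor gene, stood at 3.81 FPKM in coculture 2, an estimated 92 reads. It was listed at 0 in coculture 1 and in both mock libraries. The pairs did not repeat each other, and the unfiltered difference was 1.13 ± 0.89 (limma adjusted p = 0.876). Without coculture 1 the unfiltered and unblocked difference of Ccr7 was 2.27, a value that rests on coculture 2 alone against mock libraries listed at 0. Its ligand genes Ccl19 and Ccl21a were listed at 0 in all 4 libraries. The dendritic cell markers given above summed to 0.929 FPKM in coculture 2, where Ccr7 was found, and their part in the Ccr7 value was not tested.

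Ccr3, the eotaxin receptor gene of eosinophils, was at the edge of detection. It stood at 0.113 and 0.025 FPKM in coculture and at 0.0398 FPKM in mock 1, and it was listed at 0 in mock 2. Behind these values stood an estimated 6 and 1 reads in coculture and 2 and 0 in mock. The pair 1 ratio of 2.84 has a 95% counting interval of 0.508 to 28.8, and the unfiltered difference was 0.07 ± 0.02 (limma adjusted p = 0.849). The eosinophil genes Epx and Prg2 were listed at 0 in every library, while Siglecf, another eosinophil marker, stood at 0.0504 FPKM in coculture 1, where Ccr3 was highest, at 0.025 FPKM in mock 2 and at 0 in the others. Their part in the Ccr3 values was not tested. In RefSeq's GRCm38.p6 annotation Ccr1, Ccr1l1, Ccr3 and Ccr2 follow one another on chromosome 9. Along this stretch the pair 2 differences were 2.40 for Ccr1, 0.04 for Ccr3 and -1.26 for Ccr2, and the pair 1 differences were 0.56, 0.10 and 0.05 in the same order.

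**Figure D2:**
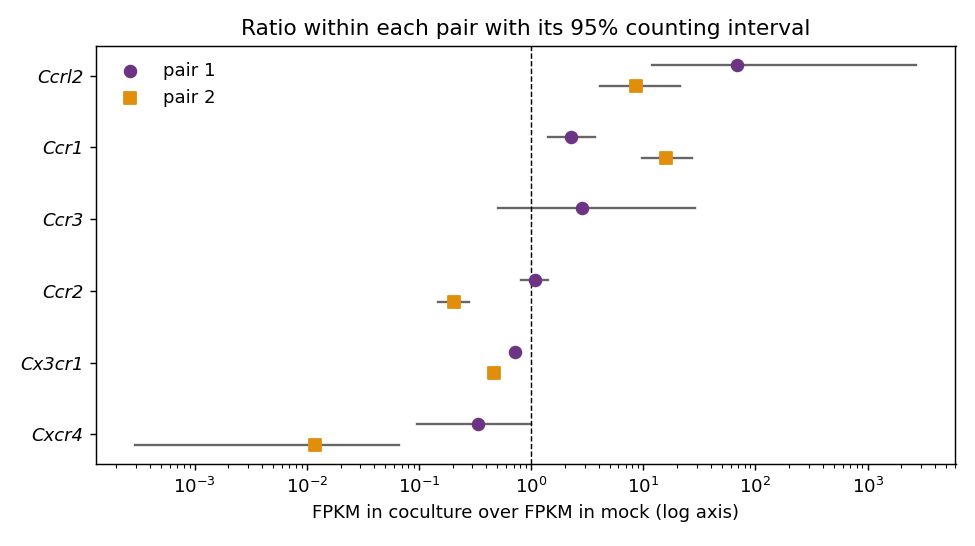
FPKM in coculture divided by FPKM in mock within each pair, on a log axis, with bars for the 95% counting interval from exact binomial limits on estimated reads. Ccrl2 and Ccr1 lie right of 1 and Cx3cr1 and Cxcr4 left of 1 in both pairs; Ccr2 is near 1 in pair 1 (1.08) and at 0.206 in pair 2. Ratios against a listed 0 (Ccr7, and Ccr3 in pair 2) are not drawn.

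The order of the receptors differed between libraries below Cx3cr1, which was highest in all 4. In coculture 1 the order was Ccrl2, Ccr1, Ccr2, Cxcr4, Ccr3 and Ccr7, and in coculture 2 it was Ccr1, Ccr7, Ccrl2, Ccr2, Cxcr4 and Ccr3. In mock 1 it was Ccr2, Ccr1, Cxcr4, Ccr3, Ccrl2 and Ccr7, and in mock 2 Cxcr4, Ccr2, Ccr1, Ccrl2 and Ccr3, with Ccr7 at 0. Ccrl2 or Ccr1 thus followed Cx3cr1 in the coculture libraries, and Ccr2 or Cxcr4 in the mock libraries. The spread between libraries of a group was as wide as most of these steps, so neighbours below Cx3cr1 are not set apart by it.

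Of the 18 other chemokine and chemerin receptor genes in both tables, 3 passed the filter, and limma called 0 of them in either direction, also at an unadjusted p under 0.05. Their median difference was 0.11, against -0.07 for all tested genes. It was -0.13 without mock 1, -0.19 without coculture 2 and 0.0085 over all 18 with no filter, so no direction is given for it. Cxcr3, the receptor for interferon-induced chemokines, stood at 4.45 and 7.22 FPKM in coculture and at 4.25 and 6.31 FPKM in mock (0.11 ± 0.16, limma adjusted p = 0.777). Cxcr5, the CXCL13 receptor gene, stood at 1.48 and 3.25 FPKM in coculture and at 1.22 and 1.37 FPKM in mock (limma adjusted p = 0.426). Ccr10, a receptor gene of skin-homing cells, stood at 1.46 and 2.84 FPKM in coculture and at 2.53 and 2.43 FPKM in mock (limma adjusted p = 0.767), with opposite signs in the pairs. The other 15 did not exceed 0.518 FPKM in any library, and 5 of them were listed at 0 throughout.

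Among 15 genes for known ligands of the 7 receptors, 5 passed the filter; limma called 1 higher, 0 lower and 4 not, where it called 0.127% of all tested genes higher and 0.0% lower. The median difference of these 5 was 1.35, against -0.07 for all tested genes, but Ccl2 passed the filter through coculture alone, and over all 15 with no filter the median was 0.09. Ccl3, a CCR1 ligand, stood at 649 and 1122 FPKM in coculture and at 75.7 and 160.0 FPKM in mock, with no overlap, and rose by 2.94 ± 0.14 (limma adjusted p = 0.027). That call was lost with no filter on low values and with any 1 library left out unblocked, settings under which limma called 0 genes. Without the replicate block, and with an untrended prior, limma called 1 gene higher and 0 lower. Whether that gene was Ccl3 is not given here. Ccl9, another CCR1 ligand, stood at 153 and 214 FPKM in coculture and at 54.8 and 90.6 FPKM in mock (limma adjusted p = 0.0623). Ccl5, which binds CCR1 and CCR3, stood at 2.90 and 7.54 FPKM in coculture and at 1.35 and 0.119 FPKM in mock (limma adjusted p = 0.284). Thus the ligands with the highest levels in coculture, apart from Mif, were those of CCR1.

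Ccl2, the CCR2 ligand gene, stood at 1.83 and 1.32 FPKM in coculture and at 0.485 FPKM in mock 1, with mock 2 listed at 0 (limma adjusted p = 0.190). Mif, which also binds CXCR4, stood at 406 and 369 FPKM in coculture and at 376 and 367 FPKM in mock (0.06 ± 0.13). Ccl6, a CCR1 ligand, did not exceed 1.25 FPKM. The remaining ligand genes were hardly found: Cx3cl1 (fractalkine) did not exceed 0.130 FPKM, Cxcl12 0.00861 FPKM, Ccl7 0.385 FPKM and Ccl24 0.335 FPKM, and Ccl11 and Ccl12 were listed at 0. For Cx3cr1 and Cxcr4, the mRNA of the dedicated chemokine ligand was therefore near 0 in the libraries of both groups. These are libraries of RAW264.7 cells, so ligands that CT26 cells may have supplied in coculture, to these or the other receptors, were not measured.

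**Figure D3:**
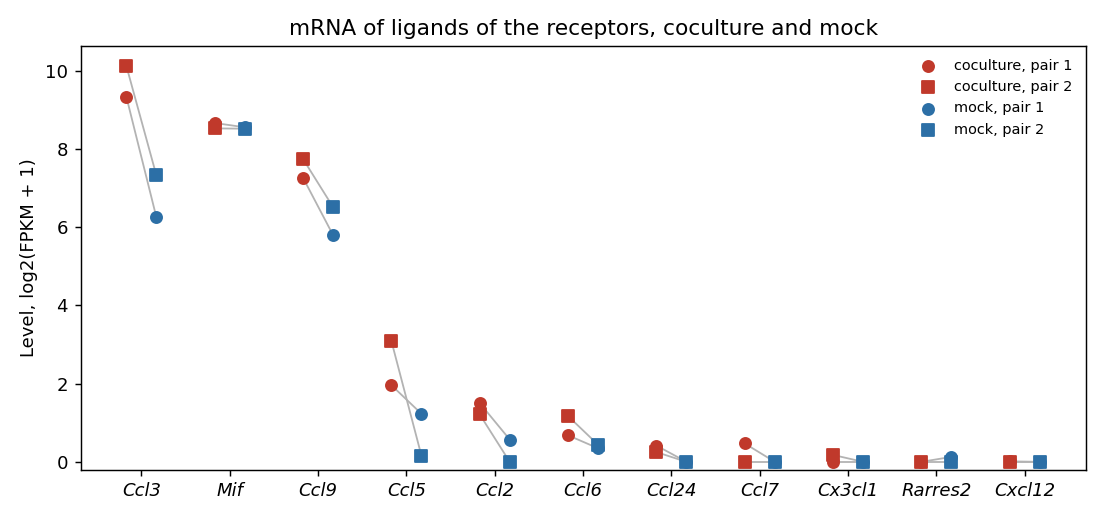
Level of ligand genes of the 7 receptors in the 4 libraries as log2(FPKM + 1), coculture (red) left of mock (blue), circles for pair 1 and squares for pair 2; ligand genes listed at 0 in every library are left out. Ccl3, Ccl9, Ccl5 and Ccl2 are higher in coculture in both pairs, and Mif is nearly level.

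Genes that carry, damp or end chemokine receptor signals were given by 40 symbols, of which 38 were in both tables (the others are alternative names) and 36 were tested. limma called 0 of the 36. Without adjustment, at p below 0.05, 3 were higher and 11 lower in coculture, against 5.26% higher and 9.45% lower of all tested genes. Their median difference was -0.19, or -0.17 in pair 1 and -0.19 in pair 2, against -0.07 for all tested genes. Of the 36, 8 were higher and 21 lower in both pairs, against 21.5% higher and 42.2% lower of all tested genes. The widest differences were those of Rgs16 and Rgs2, which belong to the RGS genes, whose products speed up GTP hydrolysis by G proteins. Other RGS genes did not share them, such as Rgs19 (-0.08) and Rgs1, which had opposite signs in the pairs. Rgs16 stood at 333 and 71.7 FPKM in coculture and at 53.3 and 1.44 FPKM in mock, a difference of 3.76 ± 0.55 (limma adjusted p = 0.125). Rgs2 stood at 4.98 and 3.72 FPKM in coculture and at 12.5 and 26.8 FPKM in mock, a difference of -1.87 ± 0.36 (limma adjusted p = 0.182). The groups did not overlap for these 2 genes, which were named for their wide differences. Of all tested genes, 10.3% lay above and 21.5% below without overlap.

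Rgs14, an RGS gene with a Rap-binding domain, stood at 5.28 and 6.26 FPKM in coculture and at 11.97 and 11.67 FPKM in mock (-0.92 ± 0.16, limma adjusted p = 0.152). Arrb1, which encodes beta-arrestin 1, a protein that uncouples activated receptors, stood at 13.7 and 36.0 FPKM in coculture and at 29.9 and 47.3 FPKM in mock (-0.73 ± 0.20, limma adjusted p = 0.256). Pik3r5, a regulatory subunit of phosphoinositide 3-kinase gamma, stood at 87.5 and 40.4 FPKM in coculture and at 39.2 and 34.2 FPKM in mock (0.69 ± 0.24, limma adjusted p = 0.323). Rap1b, a GTPase of integrin activation, stood at 109 and 171 FPKM in coculture and at 65.0 and 137 FPKM in mock (0.53 ± 0.15, limma adjusted p = 0.266).

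**Figure D4:**
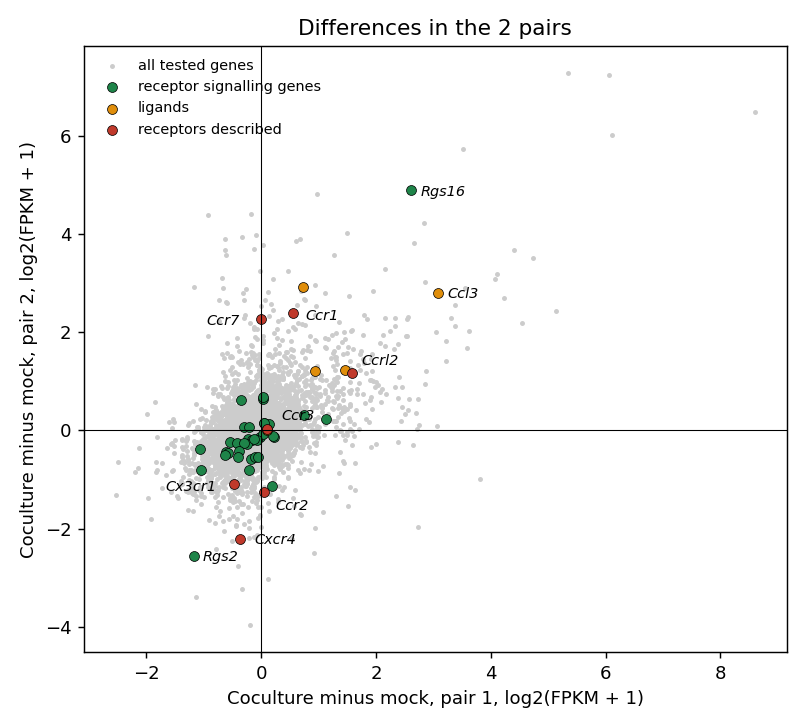
Difference of each gene, mock subtracted from coculture as log2(FPKM + 1), in pair 1 (x axis) and pair 2 (y axis), for all 10202 tested genes (grey), the tested signalling genes (green), the tested ligands (orange) and all 7 receptors (red). Ccrl2 and Ccr1 lie in the upper right and Cx3cr1 and Cxcr4 in the lower left, Ccr7 on the vertical axis and Ccr2 just right of it; Rgs16 and Rgs2 lie farther out than any receptor.

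The genes most alike in pattern were taken as those nearest in their 2 within-pair differences, among 9331 tested genes that averaged 2 FPKM or more and had no predicted or clone-based symbol, as a description over 2 pairs with no test. Nearest to Ccrl2 on the log2(FPKM + 1) scale was Nfkbid, an atypical inhibitor of NF-kappaB, at a distance of 0.043. Plek, a protein kinase C substrate, followed at 0.045, and Irak2, a kinase of Toll-like receptor signalling, at 0.10. That scale understates the change of low genes, and Ccrl2 itself averaged below the 2 FPKM asked of candidates. By the ratio of FPKM, Nfkbid, Plek and Irak2 changed less than Ccrl2 (68.1 in pair 1 and 8.68 in pair 2). Their likeness to Ccrl2 therefore holds on that scale only. Nearest to Cx3cr1 were Chst3, a chondroitin sulfotransferase gene, at 0.011, the transcription factor gene Nfix at 0.033 and Macrod1 at 0.046. Nearest to Ccr1 were Pkd1l2 at 0.17, the cytokine subunit gene Ebi3 at 0.22 and the phosphatase gene Ptpn5 at 0.23, so Ccr1 had no neighbour as close as those of Ccrl2 and Cx3cr1.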

How the data were processed

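Messenger RNA was measured in 4 libraries of RAW264.7 cells, 2 from coculture with CT26 cells and 2 mock, prepared with a VAHTS v2 kit for mRNA-seq, per the labels' protocols. The values are FPKM computed by the authors and deposited in 2 tables, 1 per replicate number. The submitters' processing notes list featureCounts, Subread and Trim Galore and name hg38 as the build, although the gene symbols are those of mouse. Versions, annotation, gene lengths and strand setting could not be learned from the sources used here. The table of pair 1 has 23427 rows, that of pair 2 has 25239 rows and 3 decimals. In that of pair 1, 23 rows with no name (at most 5.2e-06% of a library's FPKM) and 106 repeated names on 287 rows (at most 1.07%) were left out.

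FPKM were used with no further scaling. log2(FPKM + 1) values were fitted in limma 3.58.1 (R 4.3.3; lmFit, eBayes with a trended prior, two-sided), with the pair as a block because each pair is a deposited table of its own. Residual degrees of freedom were 1, those of the prior 3.43. The libraries of a pair deviated together, with a correlation of 0.76 across genes. A p-value here reflects no more than how these libraries scatter, possibly for technical reasons. The script was tested on simulated data. Depth was estimated from the FPKM steps of 1 read with exon lengths of GENCODE M21. In pair 1, 2290 of 2291 low genes gave whole-read ratios within a relative tolerance of 2e-06. Reads per gene are estimates from that depth. For Ccr1, Ccr2, Ccr3, Ccrl2 and Cxcr4 they were taken as the nearest whole multiple of the pair 1 ratio and rounded in pair 2. For Cx3cr1, Ccr7 and Ccr1l1 they are FPKM times exon length times depth, rounded, in both pairs. The receptors, the lists and the motifs were chosen with earlier results of these data known. All 7 receptors, all ligands, other receptors averaging 1 FPKM or more, and the 3 highest and 3 lowest signalling genes of the same sign in both pairs were named. Marker genes, chemerin receptors and Ccr1l1 were named as checks. Alternatives covered the pseudocount, the filter, the scaling, the block, the prior and each library left out.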

Additional observations from a re-analysis of the deposited data

How the results depend on the processing

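Among the receptors tested under each of the 13 alternatives planned, limma called 0 higher and 0 lower; these were 3 receptors under most, 1 with at least 5 FPKM and all 7 with no filter. The differences of Ccr1, Ccrl2 and Cx3cr1 kept their direction wherever they could be fitted. That of Ccr1 ranged from 0.65 (without coculture 2) to 2.37 (pseudocount 0.1), that of Ccrl2 from 1.28 to 3.34 and that of Cx3cr1 from -1.002 to -0.564, with limma adjusted p-values of 0.209, 0.0769 and 0.153 at the lowest. The number of receptors at least 2-fold higher in both pairs was 1. It was 2 with a pseudocount of 0.1 (Ccr1 joined Ccrl2), and 0 with at least 5 FPKM, where fewer receptors were tested, and after quantile normalization; for the last the cause was not tested. Over all genes, 13 were called higher and 0 lower. The split was 22 and 0 with a pseudocount of 0.1, 25 and 1 with at least 5 FPKM, 25 and 1 after rescaling to a common total, 85 and 18 after median centring and 43 and 3 after quantile normalization. It was 0 and 0 with no filter, 1 and 0 without the replicate block, 1 and 0 with an untrended prior, and 0 to 0 without any of the 4 libraries, unblocked; the causes were not tested. The replicate block changed no call among the tested receptors. For receptors below the filter, settings added after seeing the data (no filter with another pseudocount, scaling, no block or a library left out) gave differences from -1.09 to -0.11 for Ccr2 and from -2.96 to -0.44 for Cxcr4, the value nearest 0 in each case without mock 2. Ccr7 was at 0.00 without coculture 2 and at 2.27 without coculture 1. Without coculture 1, Ccr3 was at 0.0075. Leaving out a library compares levels across the 2 tables and assumes that the lone library varies like the rest. Estimated reads were 8 or fewer for Ccr3 in every library, for Cxcr4 in coculture, for Ccrl2 in mock, and for Ccr7 in every library but coculture 2, which limits the precision there.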

Other observations

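Some receptors under the level set for naming were chosen here after their values were seen. Cxcr6, the CXCL16 receptor gene, stood at 0.163 and 0.518 FPKM in coculture and at 0.0344 and 0.067 FPKM in mock, higher in coculture in both pairs, with a difference of 0.34 ± 0.13 in the limma fit with no filter (adjusted p = 0.861). Ccr9, the CCL25 receptor gene, was listed above 0 in the coculture libraries alone, at 0.0421 and 0.037 FPKM. Both values are at the edge of detection, below that of 1 read per kb of exon (0.0616 FPKM in coculture 1 and 0.0817 FPKM in coculture 2). Ackr4, a scavenging receptor gene for CCL19 and CCL21, stood at 0.0292 and 0.194 FPKM in coculture and at 0.0309 and 0.090 FPKM in mock. The scavenging receptor gene Ackr1 was listed at 0 in every library.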
